A study of Mus musculus with 12 samples.

Results

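Regions bound by Ku70 in mouse regulatory T cells (Tregs) were compared with those in conventional T cells (Tconv). The members were the regions of both Ku70 lists on chromosomes 1 to 19, outside a nuclear copy of mitochondrial DNA on chromosome 1. A region that shared at least 1 bp with a region of the other list was called common, and the others were called Treg-only or Tconv-only. This gave 6831 regions of the 9381 regions in the 4 lists of the series, made up of 5105 Treg-only regions, 1648 Tconv-only regions and 39 regions in each list that paired as common. Both cell types came from Foxp3 Yfp-Cre mice, labelled wild type, in which the Foxp3 locus drives a YFP-tagged Cre. Tregs were sorted as CD4+CD25+YFP+ cells and Tconv as CD4+CD25-YFP- cells, so the control cells carried the same allele. The strain background was C57BL/6J, and the ages of the mice behind these libraries are not given in the sources used here. Of the 12 samples of the series, 6 entered, that is 2 immunoprecipitated biological replicates and 1 input for each cell type, and the peak caller pooled the replicates into 1 list per cell type. No spread between replicates can therefore be given, and every test below compares the 2 lists and not the cell types. Region names inside the files read iTreg and Teff where the labels read Treg and Tconv. The labels were followed, and the cell types could not be checked by marker expression because the lists hold binding only.

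Ku70, the product of Xrcc6, pairs with Ku80 to form a ring that threads onto broken DNA ends. The ring recruits the DNA-dependent protein kinase and the ligation factors of nonhomologous end joining, which also seal the breaks of V(D)J recombination in developing lymphocytes. Ku70 has further been described at promoters and as a partner of transcription factors. Tregs are CD4+ T cells that restrain immune responses and depend on the transcription factor FOXP3 and on interleukin-2, whereas Tconv cells carry out helper functions.

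The sequences of 5 regions are shown, the strongest of each class (Mdga2, Kpna1 and the site near Sfi1) and 2 other common sites at genes, Abcg2, which was also strong, and Igfbp7, which was not. They were read from the mm10 reference, on the plus strand. In the common regions, shown as listed in Tregs, capitals mark the bases that the Tconv region also covers. In the other regions capitals mark the 31 bases around the summit.
Mdga2 intron, common, chr12:67059328-67059473: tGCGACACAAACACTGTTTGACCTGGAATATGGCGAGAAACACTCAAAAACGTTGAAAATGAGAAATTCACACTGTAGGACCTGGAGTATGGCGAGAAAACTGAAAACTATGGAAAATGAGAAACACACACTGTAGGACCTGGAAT
Abcg2 intron, common, chr6:58600216-58600440: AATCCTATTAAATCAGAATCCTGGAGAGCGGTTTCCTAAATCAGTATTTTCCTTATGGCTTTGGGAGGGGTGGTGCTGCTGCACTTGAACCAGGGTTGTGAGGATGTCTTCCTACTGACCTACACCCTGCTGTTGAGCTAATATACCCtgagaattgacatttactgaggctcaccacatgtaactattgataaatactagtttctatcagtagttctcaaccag
Igfbp7 promoter, common, chr5:77407322-77407487: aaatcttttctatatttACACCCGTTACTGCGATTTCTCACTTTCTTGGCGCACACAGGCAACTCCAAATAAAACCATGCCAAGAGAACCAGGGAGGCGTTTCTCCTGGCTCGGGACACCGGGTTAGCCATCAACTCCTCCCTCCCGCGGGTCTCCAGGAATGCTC
Kpna1 promoter, Treg-only, chr16:35981660-35981829: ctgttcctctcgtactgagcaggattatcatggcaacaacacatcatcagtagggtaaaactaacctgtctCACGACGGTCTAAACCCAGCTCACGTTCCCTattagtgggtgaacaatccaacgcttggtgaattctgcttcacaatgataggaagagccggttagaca
Intergenic near Sfi1, Tconv-only, chr11:3119775-3119956: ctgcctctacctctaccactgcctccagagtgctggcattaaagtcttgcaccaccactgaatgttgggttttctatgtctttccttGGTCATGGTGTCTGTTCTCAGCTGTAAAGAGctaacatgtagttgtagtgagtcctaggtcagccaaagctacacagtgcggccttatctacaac

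The Mdga2 site was the strongest common region. The genome holds 1489 stretches, itself included, with at least 80% identity over 80% of its length. The Kpna1 site was the strongest Treg-only region and had 3 such stretches. The site near Sfi1 was the strongest Tconv-only region and had 32. The Abcg2 site had 4. These counts cover the mm10 reference only. No site was compared with reference satellite or ribosomal RNA sequences, so a match to such repeats was not tested.

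How many reads stood behind a region was worked out from its fold and −log10 p, which together fix the reads at the summit and the background there. Whole numbers of reads were found for 100% of the regions. A typical region rested on few reads in both lists. The median was 9 reads (quartiles 8 and 11) in Treg-only regions and 12 reads (quartiles 11 and 14) in Tconv-only regions. The least number of reads was 8 in the Treg list and 10 in the Tconv list, against constant backgrounds of 3.43 and 3.82 reads. Consequently 51.8% of Treg-only regions (95% Wilson interval 50.4 to 53.2%) had 8 or 9 reads, fewer than any Tconv region. The background at the summit was above the constant level in 19.4% of Treg-only and 63.9% of Tconv-only regions. Only 5 Treg and 2 Tconv regions had a q-value below 0.05. Intervals of shares and counts cover counting error only. The part that library depth and the input played in the lengths of the lists was not tested.

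**Figure D1:**
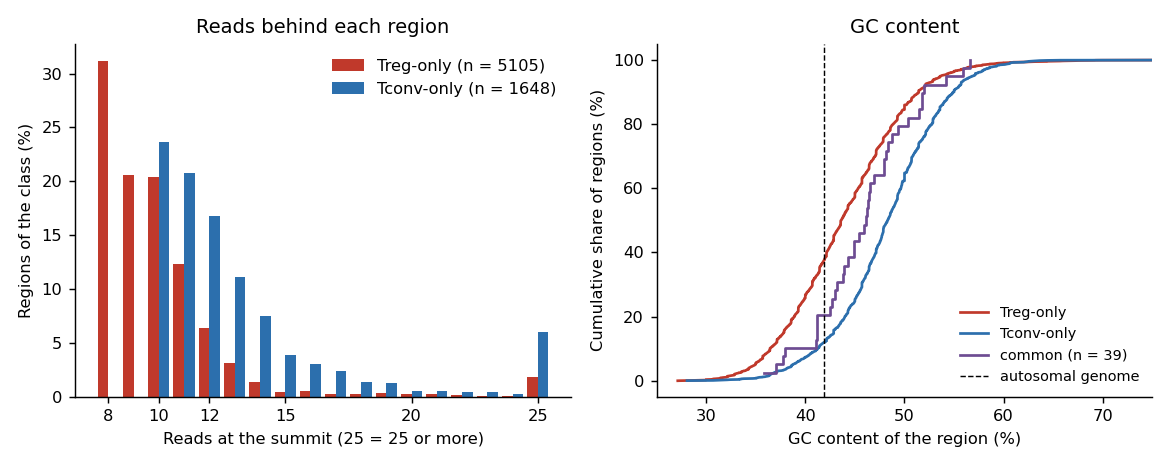
Left, share of Treg-only and Tconv-only regions (%) by the number of reads at the summit; right, cumulative share of regions (%) by GC content (%), with the autosomal genome as a dashed line. Treg-only regions pile up at 8 to 10 reads, and the Tconv-only curve lies to the right of the Treg-only curve, with median GC of 48.3% against 43.6%.

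The lists had few regions in common. The 39 common regions were 0.758% of the Treg list (0.555 to 1.03%) and 2.31% of the Tconv list (1.70 to 3.14%). The nearest Tconv region lay a median of 640 kb from a Treg-only summit and within 10 kb for 4.33% of them. From a Tconv-only summit the nearest Treg region lay a median of 108 kb away and within 10 kb for 13.4%. Lists of unequal length give unequal distances, so the values are set side by side without a test.

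Tconv-only regions were richer in G and C than Treg-only regions. The median GC content was 48.3% (quartiles 45 and 51.7%) in Tconv-only regions and 43.6% (quartiles 39.8 and 47.9%) in Treg-only regions, against 41.9% over the autosomes. GC above 50% was found in 35.2% of Tconv-only and 14.0% of Treg-only regions. At the same number of reads the difference was still present, with medians of 48.1% and 43.8% at 10 or 11 reads and of 49.0% and 44.7% at 12 to 14 reads. The medians were 48.5% and 44.0% at 15 to 19 reads. At 20 or more reads the gap was narrower, with medians of 45.2% and 43.9%. Placement followed the base composition of the surroundings as well. In 100-kb windows sorted into 5 quintiles by GC, from AT-rich to GC-rich, Treg-only regions were densest in quintiles 2 and 3, at 2.78 and 2.72 per Mb, and sparsest in quintile 5, at 1.21 per Mb (exact Poisson interval 1.11 to 1.31). Tconv-only regions rose from 0.226 per Mb (0.186 to 0.273) in quintile 1 to 0.954 per Mb (0.868 to 1.05) in quintile 4. For every 100 Treg-only regions there were 12.7 Tconv-only regions in quintile 1 and 67.4 in quintile 5. A difference between the libraries and a difference between the cells cannot be told apart in 1 list each.

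Annotation classes differed between the lists as well. A summit was a promoter summit when it lay within 3 kb of an annotated transcription start, and otherwise a UTR or exon, intron or intergenic summit in that order. Intergenic summits made up 46.4% of Treg-only and 36.8% of Tconv-only regions, a difference of -9.67 percentage points (-12.3 to -6.95; Fisher's exact test, two-sided, adjusted p = 2.29e-11 over 4 classes). By the same exact test, promoter summits made up 16.7% and 20.8% (adjusted p = 4.70e-04), UTR or exon summits 2.98% and 4.25% (adjusted p = 0.0137) and intron summits 33.9% and 38.2% (adjusted p = 0.00177). Positions taken every 1 kb along the autosomes fell 16.0% in promoters, 2.26% in UTRs or exons, 34.9% in introns and 46.8% in intergenic DNA. The Treg-only shares thus lay closer to those of the genome than the Tconv-only shares did, in every class. Protein-coding starts accounted for 56.4% of the Treg-only and 57.6% of the Tconv-only promoter summits.

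The class differences moved with GC. Within the quintiles of window GC, which held 5050 Treg-only and 1599 Tconv-only regions, the promoter difference was 0.887 percentage points and no longer passed the test (Cochran-Mantel-Haenszel chi-square test, adjusted p = 0.439). By the same chi-square test the UTR or exon difference was 0.867 points (adjusted p = 0.148) and the intron difference 3.14 points (adjusted p = 0.0515), while the intergenic difference of -4.90 points still passed (adjusted p = 0.00215). The UTR or exon difference also missed the threshold when promoters reached only 1 kb from a start (Fisher's exact test, adjusted p = 0.129). The intergenic difference was -14.2 points in quintile 2 (-20.3 to -7.72) and -6.49 in quintile 3 (-12.0 to -0.806), and in the other quintiles its interval included 0. The promoter difference was 7.11 points in quintile 2 (2.33 to 12.6). It was 4.43 in quintile 1 and -1.55, -1.25 and -0.643 in quintiles 3 to 5. The UTR or exon difference was 3.14 points in quintile 2 (0.666 to 6.70) and 2.91 in quintile 4 (0.747 to 5.58). The intron difference was 8.37 points in quintile 3 (2.84 to 14.0). In the remaining quintiles the intervals of these classes included 0.

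**Figure D2:**
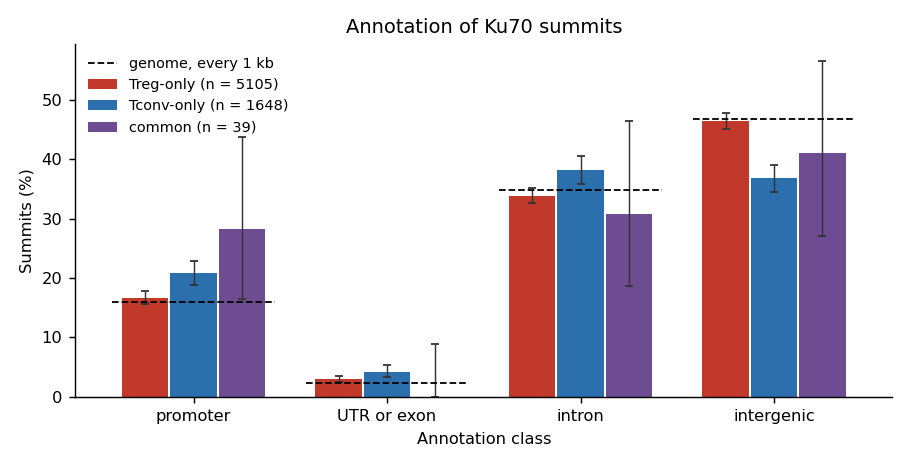
Share of summits (%) in 4 annotation classes for Treg-only, Tconv-only and common regions, the last by their Treg summits, with 95% Wilson intervals as error bars and the genome share as dashed lines. The largest gap between the list-specific classes is intergenic, 46.4% against 36.8%, and the Treg-only bars lie close to the dashed lines.

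Target genes were counted as protein-coding genes with a summit inside them or within 3 kb. Of 20807 such genes, 1746 (8.39%) had Treg but no Tconv regions, 571 (2.74%) had Tconv but no Treg regions, and 202 (0.971%) had both. The last group was 10.4% of the genes with Treg regions (9.09 to 11.8%) and 26.1% of those with Tconv regions (23.2 to 29.3%). Having both seldom meant the same site, since 186 of the 202 genes (92.1%) held no common region, and the closest Treg and Tconv summits of a gene lay a median of 23.7 kb apart (quartiles 6.85 and 72.7 kb). With at least 10 reads at the summit required in both lists, an alternative chosen after seeing the data, 4.27% of genes had Treg but no Tconv regions, 3.07% had Tconv but no Treg regions and 0.649% had both. Genes with only Treg regions then numbered 888 against 638 with only Tconv regions, in place of 1746 against 571. With the Treg list cut to the length of the Tconv list by −log10 p the order turned, to 618 against 679.

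Genes with regions were long. The median length was 66.5 kb (interval of the median 61.0 to 71.6) for genes with only Treg regions, 52.3 kb (46.6 to 58.6) for those with only Tconv regions, 150 kb (124 to 173) for those with both, and 17.6 kb over all protein-coding genes. Longer genes offer more room, and per Mb of gene body with 3 kb on each side the longest genes held the fewest regions. Treg regions fell from 3.12 per Mb (2.74 to 3.53) in genes under 10 kb to 1.76 per Mb (1.57 to 1.96) in genes of 500 kb or more. Tconv regions were at 0.769 per Mb (0.589 to 0.988) in genes under 10 kb, at 1.22 per Mb (1.09 to 1.36) in genes of 10 to 50 kb, and at 0.201 per Mb (0.142 to 0.275) in genes of 500 kb or more. Of the 218 genes of 500 kb or more, 133 (61.0%) had only Treg regions and 8 (3.67%) only Tconv regions. The median GC of the genes fell over the same range, from 48.5% under 10 kb to 40.1% at 500 kb or more.

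**Figure D3:**
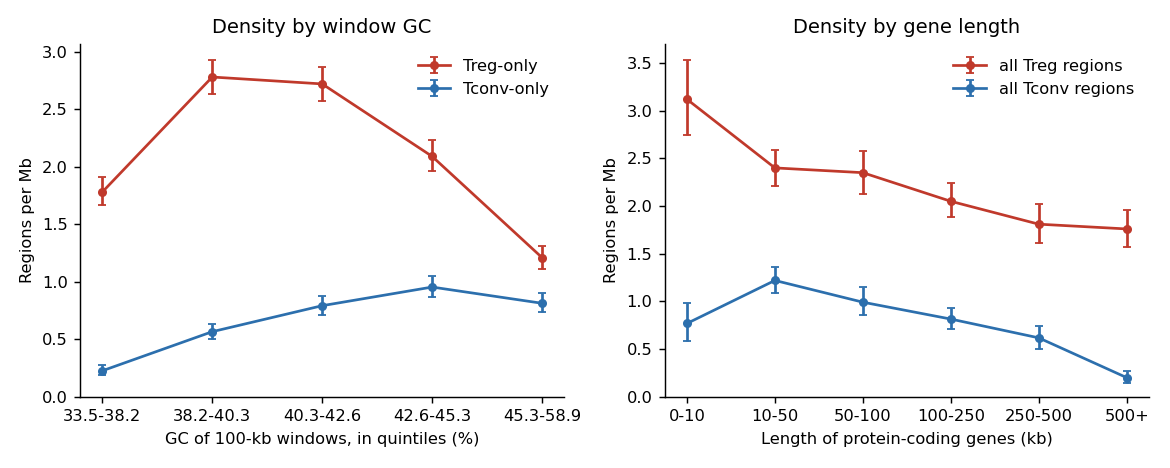
Regions per Mb with exact 95% Poisson intervals, left for list-specific regions by the GC of 100-kb windows in quintiles (%), right for all regions of each list by the length of protein-coding genes (kb). The Tconv density in genes of 500 kb or more is 0.201 per Mb, well under its other values, and the Treg density there is 1.76 per Mb.

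Among genes with only Treg regions, those with most regions were very long genes or tandem copies of immune genes. Gm20388, a gene model of 4435 kb, had 9 regions of 8 to 12 reads. Cntnap2, which encodes a neuronal adhesion protein of the neurexin family, had 6 intron regions of 8 to 11 reads over its 2245 kb. Spag16, a component of the sperm axoneme, also had 6, of 8 to 12 reads, and Naaladl2 had 5. Tgtp2, an interferon-inducible GTPase of the T cell, is only 7.01 kb long and had 7 regions of 8 to 13 reads. The summits of 5 of them occur more than once in the genome. The overlapping genes Tgtp1 and Gm12185 shared another 5 regions, and none of those summits is found only once.

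Genes with only Tconv regions carried fewer regions each, and 52 of 571 had 2 or more, against 273 of 1746 for Treg. The Treg list was also the longer, at 5144 regions against 1687, and regions per gene were not compared at equal length. Sox5, a transcription factor of the SOX family known from cartilage and neural development, had 5 regions of 10 to 13 reads over 954 kb, all with summits found once in the genome. Btbd9 had 4 regions of 10 to 12 reads. Chd8, a chromatin remodeller, had 3 of 10 to 13 reads, the nearest 0.170 kb from a start. Crb1, a cell polarity gene, also had 3, of 10 to 12 reads. Liph, which encodes a phospholipase, had 2 stronger regions of 15 and 17 reads, 2.99- and 3.34-fold over background. Rex2 and the zinc finger gene Zfp992, both on distal chromosome 4, had 5 regions of 14 to 27 reads and 3 of 17 to 20 reads. Gm21083 on chromosome 5 had 3 of 38 to 45 reads. Most of their summits occur more than once in the genome, 5 of 5, 2 of 3 and 3 of 3 in that order.

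Genes with both kinds of region were led by multigene families. C130026I21Rik and A530032D15Rik, gene models of the Sp140 cluster on chromosome 1, the second inside the first and sharing its regions, had 20 and 7 Treg and 15 and 3 Tconv regions, between 11 and 29 reads each. The zinc finger genes Zfp991 and Zfp600 had 6 and 5 Treg and 7 and 4 Tconv regions. Sfi1, which encodes a centrosomal protein, had 8 Treg regions of 21 to 84 reads and 4 Tconv regions of 29 to 47 reads. Sprr2a2, a cornified envelope gene of the skin, had 5 and 2. Olfr56, an olfactory receptor model of 156 kb that spans the Tgtp genes, had 15 Treg regions and 1 Tconv region. Inpp4b, a phosphoinositide phosphatase, was the exception among these 8 genes. It had 6 Treg regions of 9 to 11 reads and 3 Tconv regions of 10 to 14 reads across 785 kb, and 7 of the 9 summits occur once in the genome.

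Common regions held more reads than the list-specific ones but were not more enriched, and most sat in repeated DNA. Their median was 27 reads in either list, over a median background of 11.4 reads in Tregs and 14.4 reads in Tconv. The median fold was 1.96 in Tregs and 2.01 in Tconv, against 2.04 in Treg-only and 2.12 in Tconv-only regions. The summit occurred more than once in the genome in 69.2% of the Treg regions (53.6 to 81.4%) and 74.4% of the Tconv regions, against 27.2% in Treg-only and 31.3% in Tconv-only regions. Of the 39 pairs, 21 (53.8%) lay in 3 short stretches, 10 on proximal chromosome 5, 6 on distal chromosome 4 and 5 on proximal chromosome 8. Only 6 pairs had a summit whose 31 bases are found once in the genome in both lists. The Mdga2 site was among them, although its whole region had 1489 near copies, itself included. When only summits found once were kept, an alternative chosen after seeing the data, the common share of the Treg list fell from 0.758% to 0.161%.

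A protein-coding gene lay within 3 kb of 16 common regions. Mdga2, which encodes a membrane protein that restrains synapse formation, had 95 reads over a background of 37.0 in Tregs and 109 reads over 39.7 in Tconv, with −log10 p of 8.17 and 11.2. Sfi1 had 84 reads over 44.7 and 47 over 30.6. Coil, the gene of the Cajal body protein coilin, had 28 over 17.4 and 41 over 21.7. Drd3, a dopamine receptor gene, had 40 over 19.5 and 26 over 16.2. Each of these 4 sites rested on a background several times the constant level.

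Other common sites stood on a lower background, though that of Abcg2 was above the constant levels of 3.43 and 3.82 reads. Abcg2, a drug efflux transporter gene, had 27 reads over 6.54 in Tregs and 26 over 9.02 in Tconv, which is 3.41- and 2.57-fold. Arhgap26, which encodes a GTPase activating protein, had 17 over 3.43 and 15 over 5.05, with summits found once in the genome in both lists. The promoter of Igfbp7, a secreted binding protein of insulin-like growth factors, had 11 over 3.89 and 12 over 3.82. Ttc41 had 14 over 3.43 and 11 over 4.37, and was the one common region that also overlapped both FOXP3 lists of the series. These 4 genes held the same site in both lists at enrichments of 2.07- to 3.53-fold. The summit bases of Abcg2 and Ttc41 occur 2 times in the genome in both lists, and those of Igfbp7 2 times in the Treg list. The remaining sites lay at the zinc finger genes Zfp600, with 2 sites, Zfp981 and Zfp991, the overlapping pair C130026I21Rik and A530032D15Rik, and the gene models Gm9758, 4930572O03Rik and 4930467E23Rik.

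**Figure D4:**
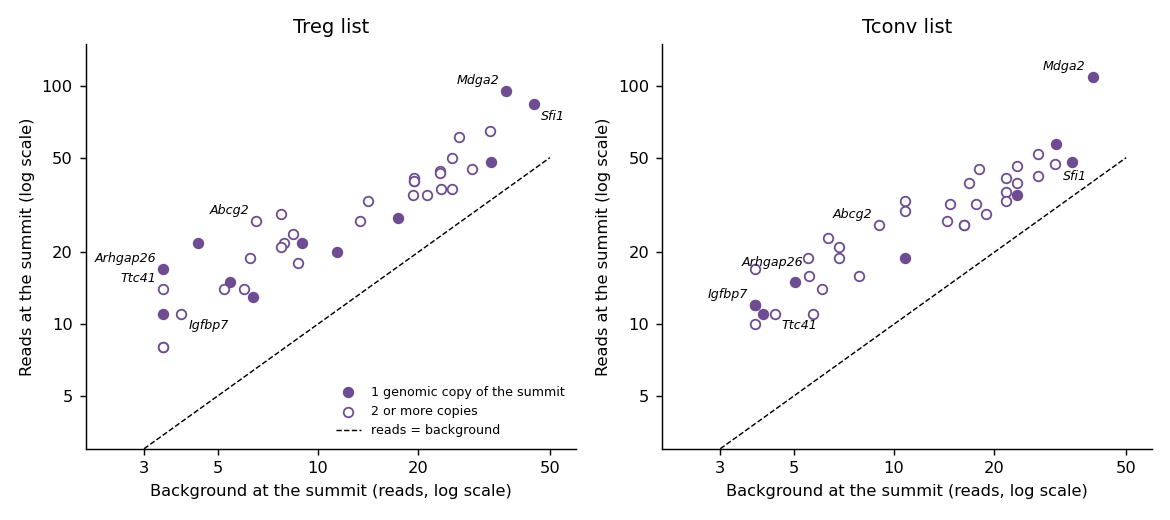
Reads at the summit against background at the summit (both in reads, log scales) for the 39 common regions in each list, filled where the summit occurs once in the genome. The Mdga2 site is highest in the Tconv list and in the Treg list, at 109 and 95 reads, while Igfbp7, Ttc41 and Arhgap26 lie at the low background end.

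The Treg densities of the T cell gene lists were above that of the autosomes as a whole, which held 2.15 Treg and 0.704 Tconv regions per Mb. Since the lists were chosen with earlier results of these data known, their intervals describe counting error and are no test of a list. Genes of Treg identity and suppression held 7.50 Treg regions per Mb (3.43 to 14.2), on 9 regions, and the interleukin-2 pathway 7.09 (2.60 to 15.4), on 6. The same 3 regions of Il2ra count in both of these lists, so the 2 densities are not independent. Neither was worked out without that gene. Genes of T cell receptor signalling held 4.16 (1.99 to 7.65), genes of conventional and naive T cells 4.14 (1.89 to 7.87), and FOXP3 partners with other T cell transcription factors 3.36 (1.96 to 5.39). The intervals of the last 3 included the autosomal value. Tconv regions held 0.834 per Mb (0.0211 to 4.65) at Treg identity genes, on 1 region, and 2.08 (0.675 to 4.85) at receptor signalling genes, on 5, so that no T cell list had an interval apart from the autosomal Tconv density. Genes under 10 kb as a group had 3.12 Treg regions per Mb and genes of 10 to 50 kb had 2.40. The median length of the Treg identity genes was 15.2 kb. Foxp3 itself lies on the X chromosome and was outside the regions compared.

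Of 30 genes of Treg identity and suppression, 6 (20%) had only Treg regions, 0 only Tconv regions and 1 (3.33%) both, beside 8.39%, 2.74% and 0.971% of all genes. Il2ra, the gene of the interleukin-2 receptor alpha chain CD25 by which the cells were sorted, had 3 Treg regions. Icos, a costimulatory receptor, Nt5e, which encodes the ectonucleotidase CD73, and Itgae, which encodes the integrin CD103, had 1 region each of 10 reads and 2.22-fold. Nrp1, a receptor on thymus-derived Tregs, and Prdm1, which encodes BLIMP-1, had 1 each of 8 reads. Ikzf2, which encodes the Ikaros family factor HELIOS, had both, a Treg region of 10 reads at chr1:69664027-69664169 and a Tconv region of 10 reads at chr1:69671081-69671284, 2.22- and 2.10-fold. At 10 reads or more, 4 of the 30 (13.3%) had only Treg regions and 1 (3.33%) both, beside 4.27% and 0.649% of all genes.

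The Il2ra regions are shown because they were the most numerous at a Treg identity gene. Capitals mark the 31 bases around each summit, and the first is cut to its first 300 bases.
Il2ra promoter, Treg, chr2:11645550-11645849: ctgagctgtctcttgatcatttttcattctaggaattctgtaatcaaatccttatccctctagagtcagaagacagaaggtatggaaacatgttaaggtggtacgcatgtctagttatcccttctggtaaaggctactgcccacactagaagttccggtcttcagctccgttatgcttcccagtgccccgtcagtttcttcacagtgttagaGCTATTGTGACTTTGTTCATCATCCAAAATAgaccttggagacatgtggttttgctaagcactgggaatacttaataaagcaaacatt
Il2ra intron, Treg, chr2:11647865-11648080: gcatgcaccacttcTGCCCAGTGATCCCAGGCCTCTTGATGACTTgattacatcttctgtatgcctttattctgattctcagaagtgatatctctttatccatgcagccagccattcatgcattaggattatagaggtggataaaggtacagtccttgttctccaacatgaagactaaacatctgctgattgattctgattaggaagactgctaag
Il2ra promoter of another transcript, Treg, chr2:11678463-11678620: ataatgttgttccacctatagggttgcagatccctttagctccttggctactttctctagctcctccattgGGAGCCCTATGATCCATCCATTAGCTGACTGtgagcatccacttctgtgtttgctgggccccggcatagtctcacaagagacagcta

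The Il2ra regions had, in the order shown, 13 reads and 2.78-fold enrichment, 8 reads and 1.85-fold, and 11 reads and 2.41-fold. The summit bases of the last occur 5010 times in the genome, whereas those of the other 2 occur once. The rest of the interleukin-2 pathway had 3 Treg regions. Cish, a feedback inhibitor of cytokine signalling, had 13 reads 0.780 kb from a start and 2.78-fold. Il2rb, the beta chain of the receptor, had 9 reads and Socs3, another feedback inhibitor, had 8. Of the 15 genes 4 (26.7%) had only Treg regions, beside 8.39% of all genes, and 0 had Tconv regions. Il2ra and Cish were the 2 with Treg regions of at least 10 reads. They were 13.3% of the list, beside 4.27% of all genes with only Treg regions at that limit.

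T cell receptor signalling was the list with most Tconv regions among the T cell lists. Of 35 genes, 5 (14.3%) had only Treg regions, 0 only Tconv regions and 3 (8.57%) both, beside 8.39%, 2.74% and 0.971% of all genes. Cblb, an E3 ubiquitin ligase that raises the threshold of T cell activation, had 1 Treg region of 9 reads and 3 Tconv regions of 11, 12 and 12 reads. None of these summits recurs in the genome, and their sequences follow, with capitals at the 31 bases around the summit.
Cblb intron, Treg, chr16:52086252-52086465: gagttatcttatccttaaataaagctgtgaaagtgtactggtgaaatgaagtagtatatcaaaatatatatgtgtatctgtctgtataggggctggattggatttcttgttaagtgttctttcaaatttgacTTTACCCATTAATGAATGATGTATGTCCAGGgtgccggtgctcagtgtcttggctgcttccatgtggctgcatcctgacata
Cblb promoter of a transcript, Tconv, chr16:52154692-52154879: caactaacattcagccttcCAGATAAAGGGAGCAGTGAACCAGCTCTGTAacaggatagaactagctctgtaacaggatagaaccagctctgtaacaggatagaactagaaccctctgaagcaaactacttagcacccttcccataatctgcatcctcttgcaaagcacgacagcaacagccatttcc
Cblb intron, Tconv, chr16:52186827-52186976: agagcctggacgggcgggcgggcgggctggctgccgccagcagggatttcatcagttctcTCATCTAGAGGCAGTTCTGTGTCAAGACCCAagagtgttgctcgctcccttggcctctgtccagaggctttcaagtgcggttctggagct
Cblb UTR or exon, Tconv, chr16:52205469-52205608: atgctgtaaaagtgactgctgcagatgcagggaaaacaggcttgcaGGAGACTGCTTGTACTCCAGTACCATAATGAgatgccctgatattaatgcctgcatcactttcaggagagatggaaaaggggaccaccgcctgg

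Themis, a signalling adaptor of the thymus, had 9 reads in Tregs at a site in a UTR or exon and 11 reads in Tconv at a site in an intron. Genes with only Treg regions were Cd247, which encodes the zeta chain of the receptor, with 10 and 13 reads, Ptprc, which encodes CD45, with 8 and 8, the adaptor Lcp2 with 11, the diacylglycerol kinase Dgka with 10 and Nfkb1 with 8. With at least 10 reads, 3 genes (8.57%) had only Treg regions, 3 (8.57%) only Tconv regions and 0 both. The shares of all genes at that limit were 4.27%, 3.07% and 0.649%.

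Genes of conventional and naive T cells had only Treg regions about as often as all genes did, at 10.3% against 8.39%. Ccr7, the chemokine receptor that guides naive cells into lymph nodes, had 3 Treg regions of 11, 10 and 13 reads, and Klf2, a transcription factor of quiescence, had 2 of 10 and 11 reads. Satb1, a chromatin organiser, had 9 reads 0.250 kb from a start. Il4, the cytokine of type 2 helper cells, had 1 Tconv region of 11 reads 0.0140 kb from a start. Of 29 genes, 3 had only Treg regions, 1 (3.45%) only Tconv regions and 2 (6.90%) both, the last Foxp1 and Themis. Among all genes 2.74% had only Tconv regions and 0.971% both. The counts were 2 (6.90%), 3 (10.3%) and 0 at 10 reads or more, against 4.27%, 3.07% and 0.649% of all genes.

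Of 36 FOXP3 partners and T cell transcription factors, 7 (19.4%) had only Treg regions, 1 (2.78%) only Tconv regions and 2 (5.56%) both. The shares of all genes were 8.39%, 2.74% and 0.971%. Bcl11b and Rora had 3 Treg regions each, of 8 to 9 and 9 to 10 reads. Runx1, a FOXP3 partner, and Ets1 and Hdac9 had 2 each, and Irf4 had 1 of 11 reads. Ep300, the histone acetyltransferase p300, had 1 Tconv region of 13 reads over a background of 5.41. Foxp1 had 2 Treg regions of 9 and 8 reads and 1 Tconv region of 13 reads. With at least 10 reads, 3 genes (8.33%) had only Treg regions, 2 (5.56%) only Tconv regions and 1 (2.78%) both. All genes then stood at 4.27%, 3.07% and 0.649%.

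**Figure D5:**
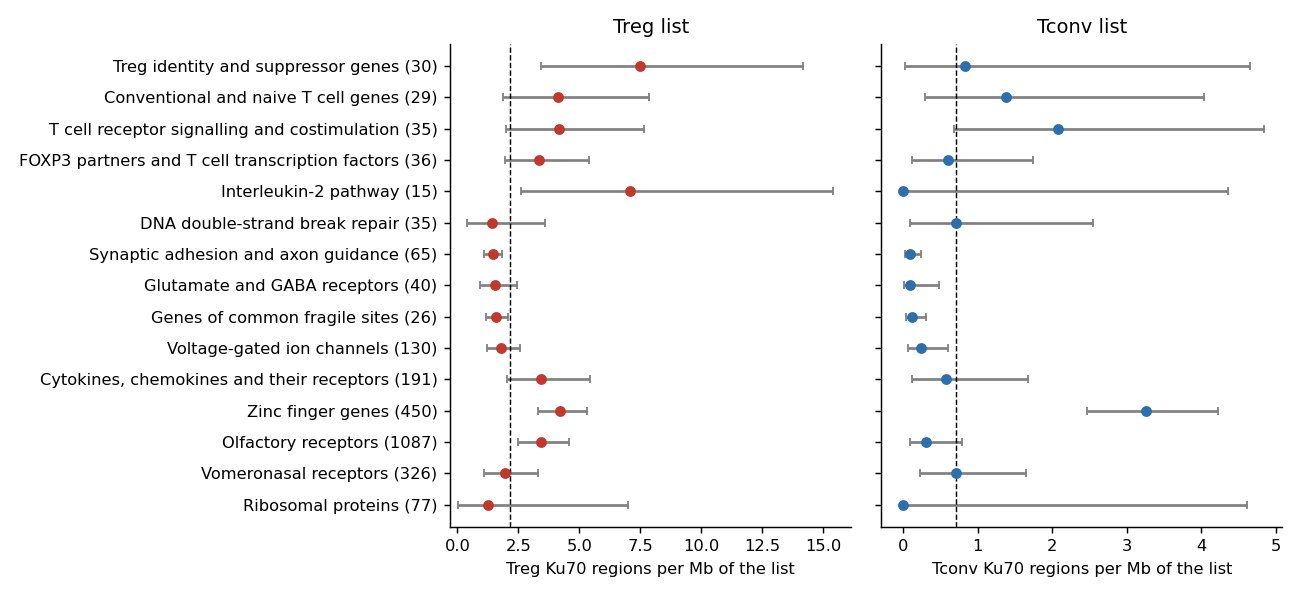
Treg (left) and Tconv (right) Ku70 regions per Mb of gene body with 3 kb on each side, for 15 gene lists with the number of genes in brackets, with exact 95% Poisson intervals and the autosomal density as dashed lines. Treg identity genes stand at 7.50 per Mb in the Treg list, zinc finger genes at 3.26 per Mb in the Tconv list, and synaptic adhesion genes at 0.0920 per Mb in the Tconv list.

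Genes of DNA break repair, the pathway of Ku70 itself, were not set apart. Of 35 genes, 4 (11.4%) had only Treg regions, 2 (5.71%) only Tconv regions and 0 both, beside 8.39%, 2.74% and 0.971% of all genes. The densities of 1.41 Treg regions per Mb (0.384 to 3.61) and 0.705 Tconv regions per Mb (0.0854 to 2.55) had intervals that included the autosomal values. Rad52 and Rad51b, of homologous recombination, had 8 Treg reads each, and Palb2, of the same pathway, had 9. Rad50, of the break-sensing MRN complex, and Rif1, which guards ends from resection, had 10 Tconv reads each. At that limit of 10 reads, 0 genes had Treg regions and 2 (5.71%) had Tconv regions. Over all genes, 4.27% had only Treg and 3.07% only Tconv regions at that limit.

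Synaptic adhesion and fragile site genes, which are very long, were often marked in Tregs, while their density of regions per Mb was low in both lists. Of 65 genes of synaptic adhesion and axon guidance, with a median length of 580 kb, 31 (47.7%) had only Treg regions, 2 (3.08%) only Tconv regions and 2 (3.08%) both. Lsamp and Epha6 had 5 Treg regions each, and Cntn5 and Dlg2 had 3 each, all of 8 to 11 reads. Kirrel3 and Adgrl3 had 1 Tconv region each, of 12 and 10 reads, and Sdk1 and Mdga2 had both kinds. Per Mb the list held 1.45 Treg regions (1.11 to 1.85) and 0.0920 Tconv regions (0.0251 to 0.236), both under the autosomal density. The median GC of its genes was 39.3%. Genes of common fragile sites, at a median length of 1168 kb, were alike, with 17 of 26 (65.4%) marked only in Tregs, among them Naaladl2, Ctnna3 and Rora, 1 (3.85%) only in Tconv, Fhit, and 3 (11.5%) in both, Macrod2, Pard3b and Immp2l. They held 1.57 Treg (1.17 to 2.06) and 0.121 Tconv regions per Mb (0.0329 to 0.309). Immp2l, a mitochondrial peptidase gene, had the strongest Tconv region of these, with 15 reads and 2.99-fold. The Tconv summits of Fhit, Pard3b and Adgrl3 occur 17, 1655 and 1673 times in the genome. With summits found once, 14 fragile site genes (53.8%) had only Treg regions, 0 only Tconv regions and 2 (7.69%) both. Over all genes these shares were 7.19%, 2.50% and 0.658%. Of 40 glutamate and GABA receptor genes, 10 (25%) had only Treg regions, led by Grm8 with 4, and 1 only a Tconv region, Grm6 with 12 reads. Of 130 voltage-gated ion channel genes, 24 (18.5%) had only Treg regions, led by Scn3a with 3. Another 2 had only Tconv regions, Cacna1s and Kcng4, and 1 had both, Cacnb2. With all regions counted, 8.39% of all genes had only Treg regions, 2.74% only Tconv regions and 0.971% both. The receptor and channel lists held 1.53 (0.910 to 2.43) and 1.80 (1.22 to 2.55) Treg regions per Mb, against 2.15 over the autosomes. Their Tconv densities were 0.0853 (0.00216 to 0.475) and 0.232 (0.0632 to 0.594), against 0.704. With at least 10 reads, 20 of 65 synaptic adhesion genes (30.8%) and 9 of 26 fragile site genes (34.6%) had only Treg regions. Only Tconv regions were then found at 3 (4.62%) and 1 (3.85%) of them. Over all genes these shares were 4.27% and 3.07%.

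Zinc finger genes had the highest Tconv density of the 15 lists, though not the highest share of genes with Tconv regions. They held 3.26 Tconv regions per Mb (2.47 to 4.22) against 0.704 over the autosomes, and 4.23 Treg regions per Mb (3.32 to 5.31) against 2.15. Of 450 genes, 40 (8.89%) had only Treg regions, 10 (2.22%) only Tconv regions and 18 (4%) both. The shares of all genes were 8.39%, 2.74% and 0.971%, so only the last stood out. The genes with both and most regions were Zfp991, Zfp600, Zfp980, Zfp981 and Zfp993, all on distal chromosome 4. The densities above include the regions of that chromosome stretch. With summits found once in the genome, 35 of the 450 (7.78%) had only Treg regions, 13 (2.89%) only Tconv regions and 7 (1.56%) both. All genes then stood at 7.19%, 2.50% and 0.658%. Outside this cluster, Zbtb20, a transcriptional repressor, had a Treg region of 15 reads and 3.15-fold, and Zfp410 a Tconv region of 14 reads and 2.80-fold.

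Cytokine and chemokine genes with their receptors held 3.45 Treg (2.05 to 5.45) and 0.575 Tconv regions per Mb (0.119 to 1.68). Both intervals included the autosomal densities, 2.15 and 0.704 per Mb. Of 191 genes, 13 (6.81%, against 8.39% of all genes) had only Treg regions, among them Tnfrsf8, Il16 and Ifngr1 beside Ccr7 and Il2ra. Another 3 (1.57%, against 2.74% of all genes) had only Tconv regions. These were Tnfrsf19 with 14 reads 0.571 kb from a start and 2.81-fold, Il4, and Il31 with 10 reads. Olfactory receptors held 3.43 Treg regions per Mb (2.50 to 4.59) and 0.305 Tconv regions (0.0831 to 0.781). Of the 45 Treg regions 15 lay in the single model Olfr56, which spans the Tgtp genes. Of 1087 genes, 31 (2.85%, against 8.39% of all genes) had only Treg regions, 3 (0.276%) only Tconv regions and 1 both. Vomeronasal receptors held 1.97 and 0.705 per Mb, and 3 neighbours on chromosome 17, Vmn2r114, Vmn2r115 and Vmn2r117, had both kinds. Ribosomal protein genes held 1 Treg region and 0 Tconv regions.

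The lists were densest in the same few stretches. Over 4 stretches picked after their counts were seen, which add up to 8 Mb and 79 protein-coding genes, lay 178 Treg-only regions (3.49%), 216 Tconv-only regions (13.1%) and 22 of the 39 common regions. A 3-Mb stretch of distal chromosome 4, with Zfp991, Zfp600 and Rex2, held 71 Treg-only and 120 Tconv-only regions. A 2-Mb stretch of proximal chromosome 8 held 38 and 51, so that Tconv-only regions were the more numerous in both. A 2-Mb stretch of proximal chromosome 5 held 30 and 25, and 1 Mb of chromosome 1, with C130026I21Rik, held 39 and 20. The summit occurred more than once in the genome in 84.8% of the Treg-only and 82.4% of the Tconv-only regions of these stretches.

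Chromosomes differed in how the lists divided. Tconv-only regions were 24.4% of the list-specific regions overall. The share was lowest on chromosome 18, at 14.5% (10.5 to 19.5%), and highest on chromosome 4, at 35.4% (31.3 to 39.6%). Without the dense stretch the Tconv density on chromosome 4 fell from 1.14 to 0.377 per Mb, under that of every other chromosome but 18, at 0.375, while the highest then was 0.947 per Mb on chromosome 16.

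The strongest list-specific regions were few and mostly in repeated DNA. After the Kpna1 site, with 30 reads over 3.89 and 5.47-fold, the Treg-only list went on with 2 sites on proximal chromosome 5 of 57 and 60 reads, an intron of Gm9495 on chromosome 8 with 27 reads over 4.08 and 4.80-fold, and a promoter of Sfi1 with 47 reads over 14.1. After the site near Sfi1, with 42 reads over 10.8 and 3.47-fold, the Tconv-only list went on with Speer4e, 63 reads over 21.7. Then followed an intergenic site on chromosome 12 with 37 reads over 9.02, another on chromosome 5 with 53 reads, and an intron of C130026I21Rik with 26 reads over 5.36. The chromosome 12 site, at chr12:74804253-74804426, had 1974 near copies in the genome and the Gm9495 site 717. Of the 5 strongest of each class, 2 Treg-only and 1 Tconv-only summits occur once in the genome.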

How the data were processed

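Ku70 was profiled by chromatin immunoprecipitation and sequencing in sorted mouse Tregs and Tconv, with 2 immunoprecipitated replicates and 1 input each. The authors mapped trimmed reads with Bowtie2 (mm10), discarded duplicates by Picard and pooled the replicates. MACS2 then compared them with the input at p of 0.05 and without a fragment model. The submitters' processing notes also name FastQC, Trim Galore and GATK, and versions are not given in the sources used here. Since replicates were pooled and the threshold was uncorrected, the lists carry no replicate error and include many regions of few reads. Each deposited row gave a summit with its fold over the local background, its −log10 p and its −log10 q. The total reads of each sample were not analysed here. Antibody entries in the labels also appear on input samples and were not used.

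Rows of the same chromosome, start and end were merged, which left 5295 Treg and 1791 Tconv regions. Chromosomes X and Y, the mitochondrial genome, unplaced sequence and the nuclear mitochondrial copy were removed, which left 5144 and 1687. Summit reads were the whole number that fitted the fold and the −log10 p (tolerance 0.002), and 16 Treg and 9 Tconv regions had 2 solutions, so their value is less certain. Regions were annotated with GENCODE M21 by summit, and a gene was a target when a summit lay inside it or within 3 kb. Overlapping genes were each given the region. A summit was called repeated when its 31 bases occurred more than once on either strand of mm10, and near copies were found with BLAST 2.17.0. Shares of the lists were compared with two-sided Fisher's exact tests, adjusted by Benjamini-Hochberg, and within quintiles of window GC with Cochran-Mantel-Haenszel chi-square tests. Intervals were Wilson for shares and exact Poisson for densities, at 95%. Scripts used Python 3.11.15, scipy 1.17.1 and pysam 0.24.0 and were tested on simulated data.

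The 8 genes with most regions per class, the 5 strongest regions per class, and leading genes of 15 gene lists were named, except for a few genes that are not reported here. The members and the lists were chosen with earlier results of these data known. Alternatives changed the overlap, the p threshold, the list length, repeats, promoter width, gene set and gene assignment. A further 4 were chosen after seeing the data.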

Additional observations from a re-analysis of the deposited data

How the results depend on the processing

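Of 90 alternative values under 13 settings, 64 kept their call or stayed near the reported value, 20 moved, 6 lost their call and 0 changed direction. The cause was not tested. The intergenic difference passed in every alternative run. The UTR or exon difference lost its call by Fisher's exact test at −log10 p of at least 2 (1.23 points, adjusted p = 0.116), with promoters within 1 kb (0.960, 0.129) and with protein-coding genes only (0.847, 0.0934). Within quintiles of window GC, chosen after seeing the data, the promoter (0.887), UTR or exon (0.867) and intron (3.14) differences lost theirs.

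The common share of the Treg list was 1.30% when regions within 1 kb counted, 1.42% with the Treg list cut to the Tconv length, and, in alternatives chosen after seeing the data, 1.48% with at least 10 reads, 0.161% with summits found once and 0.344% without the 4 dense stretches. Genes with both numbered 55 at −log10 p of at least 2, 94 with equal lengths, 130 with at most 50% masked bases, 135 with at least 10 reads, 137 with summits found once and 486 by nearest gene, against 202. With equal lengths, genes with only Treg regions numbered 618 and those with only Tconv regions 679. Median length of genes with only Treg regions was 71.9 kb with equal lengths, 81.5 kb with summits inside genes and 48.9 kb by nearest gene. That of genes with only Tconv regions was 68.8 kb at −log10 p of at least 2, 60.5 kb with equal lengths, 60.7 kb with summits inside genes, 42.2 kb by nearest gene and 58.9 kb with at least 10 reads. By nearest gene, genes with both had a median of 73.5 kb. Median reads were 11 in Treg-only regions with at least 10 reads and 11 in Tconv-only regions with summits found once.

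No paired analysis was possible because each cell type had 1 list made from its pooled replicates, and for the same reason none was left out. Few reads per region limit both lists, so a region missing from a list is not shown to be unbound.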

Other observations

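Groups of neighbouring regions were looked for after the values had been seen, among regions whose summit occurs once in the genome, with gaps of at most 5 kb. The Treg list had 5 groups of 3 or more regions and the Tconv list 2, and both Tconv groups lay in the dense stretches of chromosomes 4 and 8. Neat1, a long noncoding RNA that scaffolds nuclear paraspeckles, held 5 Treg regions of 9 to 17 reads within 2.66 kb of chromosome 19. The pseudogene Gm8995 on chromosome 7 held 5 of 8 to 14 reads within 7.03 kb. Other Treg groups lay at the end of Ccr7, with 3 regions of 10 to 13 reads, and at chr11:58189036-58191959, with 3 of 10 to 13 reads. Pairs and larger groups together held 3.19% of these Treg regions and 2.63% of these Tconv regions. No test was run on these groups.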
